A study of Mus musculus with 12 samples.

Results

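Mouse embryonic stem cells (ESC) of the E14 line were sequenced for small RNA in 2 states, untreated (labelled WT) and paused with mTOR inhibited. The samples were chosen by those labels: 6 of the 12 deposited samples are E14 ESC, 3 control and 3 paused, and the other 6 are control and paused trophoblast stem cells (TSC), which give rise to placenta. In every group the values of replicate 3 equalled those of replicate 2 at each of the 1978 miRNAs. Such a pair entered as 1 library, which left 4 of 8 distinct libraries in ESC, 2 control (control 1 and 2) and 2 paused (paused 1 and 2). Of the 1978 miRNAs, 528 had a count in at least 1 ESC library and 206 were abundant enough to test. E14 is 1 established ESC line grown without the embryo, and control and paused cells carry no other allele or agent in the labels. The sources used here do not give the inhibitor, its dose, its duration or the culture medium. Nor do the labels state separate cultures for the libraries, so p-values measure only the spread between these samples, which may be technical.

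mTOR is the kinase that couples nutrients and growth factors to protein synthesis and cell growth, and blocking it puts mouse ESC and blastocysts into a reversible dormant state that resembles diapause, the natural arrest of the embryo before implantation. A miRNA is cut from a hairpin, loaded into an Argonaute protein as its 5p or 3p arm, and directs the repression of messenger RNAs that pair with its seed, the bases 2 to 8 from its 5′ end. miRNAs with 1 seed can therefore repress overlapping targets, whichever locus they come from. In mouse ESC the miR-290-295 cluster is the main source of miRNAs and shares a seed with the miR-302 family of the primed state, while the miR-17-92 cluster and its paralogs accompany proliferation.

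The mature sequences below are those on which the results turn, grouped by seed, with the seed in capitals (RefSeq, GRCm38.p6). Such a sequence was held in the table for 164 of the 206 tested miRNAs. The first set shares a seed between the miR-290-295 cluster and the miR-302 hairpins. Of its members only miR-302b-3p and miR-302d-3p were called, both lower, and both passed the count minimum only through control ESC.
miR-294-3p: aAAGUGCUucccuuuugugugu
miR-291a-3p: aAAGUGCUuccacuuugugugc
miR-295-3p: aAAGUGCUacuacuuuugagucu
miR-302b-3p: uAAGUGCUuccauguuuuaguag
miR-302d-3p: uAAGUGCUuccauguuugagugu

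The next set, the miR-25/miR-92 family, has members called in both directions although all 5 carry the same seed.
miR-25-3p: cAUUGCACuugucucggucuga
miR-92a-3p: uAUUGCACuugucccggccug
miR-363-3p: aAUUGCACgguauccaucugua
miR-32-5p: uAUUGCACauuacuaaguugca
miR-367-3p: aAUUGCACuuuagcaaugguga

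The following are members of the miR-130/miR-301 family, of which 3 of 5 tested were called lower and 1 higher, and of the miR-200 family, which has 2 seeds and of which 3 of 5 tested were called higher. miR-130b-3p and miR-141-3p were not called. The higher calls of miR-130b-5p, in the first family, and of miR-200b-3p came from miRNAs that passed the count minimum only through paused ESC.
miR-130a-3p: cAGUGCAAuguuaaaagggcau
miR-301a-3p: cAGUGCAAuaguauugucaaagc
miR-130b-3p: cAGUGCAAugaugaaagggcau
miR-200b-3p: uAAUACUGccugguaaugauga
miR-429-3p: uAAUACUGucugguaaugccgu
miR-200a-3p: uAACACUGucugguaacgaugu
miR-141-3p: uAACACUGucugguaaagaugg

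Both arms of miR-293 are shown because the balance between them shifted, and miR-34a-5p, miR-3473b, miR-142a-5p and miR-142a-3p because their decreases were among the best counted.
miR-293-5p: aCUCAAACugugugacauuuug
miR-293-3p: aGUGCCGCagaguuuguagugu
miR-34a-5p: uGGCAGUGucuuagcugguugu
miR-3473b: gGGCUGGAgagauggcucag
miR-142a-5p: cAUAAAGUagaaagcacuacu
miR-142a-3p: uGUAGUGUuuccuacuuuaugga
The neighbours miR-296-5p and miR-298-5p moved in opposite directions, and miR-26b-5p had the highest fitted increase among called miRNAs, although it was tested only because paused ESC brought it over the count minimum.
miR-296-5p: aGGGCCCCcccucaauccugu
miR-298-5p: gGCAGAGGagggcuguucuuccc
miR-26b-5p: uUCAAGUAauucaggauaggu

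Total counts were 19266 and 13607 in the control libraries and 73574 and 61749 in the paused libraries, so control cells were sampled less deeply. A miRNA with 0 counts could be present at up to 3 counts, worth 137 and 192 CPM (counts scaled to 1 common library size, the total count times the TMM factor) in control and 37.4 and 46.4 CPM in paused ESC. These floors account for counting error alone, since the labels name no molecular identifiers. The intervals of log2 fold changes given below rest on the standard error of the edgeR fit. That error also holds the spread between libraries, pooled over miRNAs. Control libraries held 359 and 318 detected miRNAs and paused libraries 416 and 405. In 1 random draw of 13607 counts from every library the order was the other way, with 331 and 318 detected in control and 289 and 271 in paused cells. The 10 most abundant miRNAs took 65.9% and 66.2% of counts in control and 69.7% and 69.2% in paused ESC.

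The labelled cell type was checked against marker miRNAs. All 12 arms of miR-290a to miR-295 had counts, with a sum of 538871 to 620924 CPM over the 4 libraries. The same sum was 515173 to 772404 CPM in TSC, so it does not set ESC apart from TSC. The neural markers miR-9, miR-124 and miR-137, the muscle markers miR-1a, miR-133a and miR-206 and the liver marker miR-122 were at 0 in every ESC library. Entries encoded at several loci are poorly represented, and how the authors treated reads that match several loci is not given in the sources used here. Of 80 miRNAs matched to several hairpins 73 (91.3%) had no count in ESC, among them let-7a-5p, miR-16-5p, miR-26a-5p and miR-30c-5p, against 72.5% of 1872 with 1 hairpin. A 0 is therefore not read as absence for miR-9, miR-1a, miR-133a and miR-199a, which are among the 80, or for miR-124, for which no locus was matched by name. Of 10 fibroblast or feeder marker arms 3 had counts (miR-143-3p and both arms of miR-145a), with a sum of 1003 and 767 CPM in control and 1072 and 851 CPM in paused cells. Of 11 blood marker arms 7 had counts, and their sum was 7839 and 9714 CPM in control and 5287 and 4641 CPM in paused ESC. miR-223 and miR-451a, defining markers of myeloid and erythroid cells, were at 0, as were miR-199a, miR-199b and miR-214 of fibroblasts. The trophoblast markers miR-322 and miR-503 summed to 547 and 959 CPM in control and 648 and 773 CPM in paused ESC, against 49310.2 to 142432 CPM in TSC. The other trophoblast markers, arms of miR-466, miR-467 and miR-669, were not low in control ESC. They summed to 20463 and 24093 CPM in control and 1746 and 1686 CPM in paused ESC, against 32570 to 57261 CPM in TSC.

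Pausing was accompanied by more decreases than increases. At an adjusted p below 0.05 edgeR called 57 of 206 tested miRNAs (27.7%). In paused ESC 17 were higher (8.25%) and 40 lower (19.4%). The median log2 fold change over all tested miRNAs was −0.03. Levels did not overlap between control and paused libraries for 56 of the 57, against 141 of all 206 tested. The exception was miR-297c-5p, with 0 and 3 counts in control and 0 and 0 in paused cells. In bulk RNA a lower level in each cell and fewer cells with the miRNA cannot be told apart. The split of calls depended on scaling. With median-of-ratios scaling the median shifted to 0.11 and the calls were 29 higher and 37 lower, and with TMM computed outside the miR-290-295 cluster the median shifted to 0.36 and the calls were 41 higher and 33 lower. With ESC libraries alone in the fit they were 28 and 40, and DESeq2 called 9 and 28. Leaving out paused 1 reduced the increases from 17 to 9, and leaving out control 2 reduced the decreases from 40 to 26. The count minimum also bears on direction. Of the 206, 14 would not have reached it without control ESC, and 8 of these were called lower (miR-142a-5p, miR-142a-3p, miR-302b-3p, miR-302d-3p, miR-367-3p, miR-466m-3p, miR-669l-3p and miR-708-3p). Another 12 would not have reached it without paused ESC, and 4 of these were called higher (miR-26b-5p, miR-31-5p, miR-130b-5p and miR-200b-3p). For these calls the filter bound or favoured the direction. The 180 others gave 13 calls higher and 32 lower. Of the 57 calls, 26 were also called in every fit with 1 ESC library left out.

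**Figure D1:**
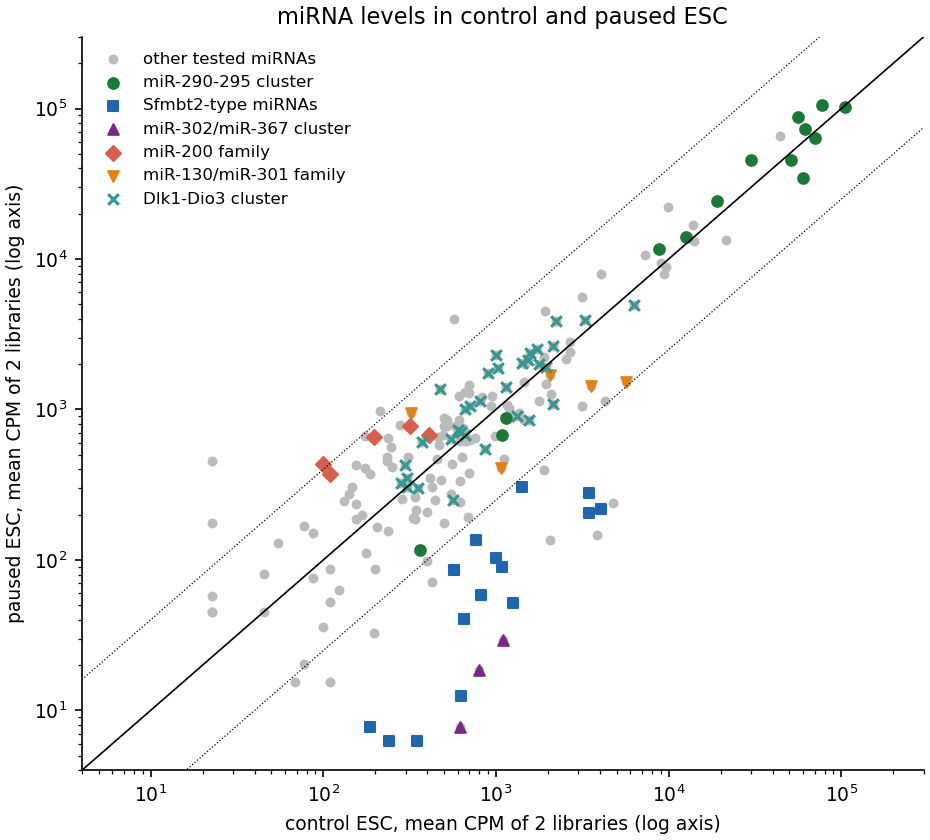
Mean level of each tested miRNA in control ESC (x axis, CPM, log scale) and paused ESC (y axis, CPM, log scale), over 2 libraries a group, for the 195 tested miRNAs above 0 in both groups, while the other 11 were at 0 in a group. The solid line marks equal levels and the dotted lines 4-fold differences. Most of the miR-290-295 cluster lies along the line at the top right, while its minor product miR-291b-3p lies at lower levels and below the line. The Sfmbt2-type and miR-302/miR-367 members lie far below the line.

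The miR-290-295 cluster kept its share of all counts, 64.6% and 62.1% of counts in control and 65.3% and 65.1% in paused ESC, but its products did not all follow. Of its 14 tested members 2 were called lower and 0 higher, with a median log2 fold change of 0.06. TMM computed without the cluster gave 6 higher and 0 lower, and median-of-ratios scaling gave 3 calls up and 2 down. miR-294-3p, the most abundant carrier of the ESC seed in paused cells, had 1176 and 925 counts in the control libraries and 6743 and 5968 in the paused libraries, or 53596 and 59115 CPM in control and 84084 and 92319 CPM in paused ESC. Both paused values were above both control values, but the difference missed the threshold (log2 fold change 0.65 ± 0.30 SE, 95% interval 0.06 to 1.23, edgeR adjusted p = 0.0924). The same held for miR-293-5p (0.62, adjusted p = 0.121). miR-291a-3p overlapped between groups, at 68088 and 71896 CPM in control and 54194 and 72395 CPM in paused ESC (−0.15, 95% interval −0.73 to 0.44). miR-293-3p fell, from 57515 and 63013 CPM in control to 30514 and 38518 CPM in paused cells (−0.80 ± 0.30 SE, adjusted p = 0.0317), and the call was lost with any 1 of the 4 libraries left out (adjusted p 0.0719 to 0.398). miR-291b-3p, a minor product, fell by 1.70, with 9 and 5 counts in the control libraries and 5 and 11 in the paused libraries. That call was lost without control 1 (0.346), control 2 (0.114) or paused 1 (0.213) and by DESeq2 (0.0527).

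The miR-302/miR-367 cluster, which lies antisense to an intron of Larp7 (chromosome 3, 127545624 to 127545689 for Mir302d, GRCm38), nearly vanished. miR-302b-3p had 11 and 17 counts in the control libraries and 3 and 0 in the paused libraries, miR-302d-3p had 9 and 13 against 0 and 1, and miR-367-3p had 20 and 20 against 1 and 3. All 3 were called lower. They were tested because control ESC alone brought them over the count minimum, so their direction was bound to be this one. Of the 10 listed arms 2 had no count in ESC, and the 5 untested others summed to 33 control counts and 5 paused counts. The call of miR-302b-3p was lost without control 2 (0.11).

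Counts were also summed over the miRNAs that share a seed. The sums hold only what was counted, so a member encoded at several loci may be missing from them: miR-19b-3p had 8 and 4 counts in control beside 826 and 794 of miR-19a-3p, and let-7a-5p and let-7f-5p had 0. Of 170 seeds (or miRNAs with no sequence in the table, each on its own) 46 were called (27.1%). Among the 128 with a sequence, 8 rose and 16 fell. The ESC seed AAGUGCU, carried by miR-294-3p, miR-291a-3p, miR-295-3p, miR-302b-3p and miR-302d-3p, took 20.5% of counts in control and 21.0% in paused ESC. Its summed level was 178337 and 204173 CPM in control and 191724 and 212399 CPM in paused ESC, with overlap, and its log2 fold change was 0.08 ± 0.31 SE (95% interval −0.53 to 0.69). miR-302b-3p held 0.299% and 0.571% of that seed's counts in the control libraries, and miR-302d-3p 0.244% and 0.436%, so their decrease weighed little in the sum. Within the seed the share of miR-294-3p went from 31.9% and 31.1% to 46.5% and 43.1%. miR-291a-3p gave 1494 of 3685 and 1125 of 2979 of the seed's counts in the control libraries and 4346 of 14487 and 4680 of 13836 in the paused libraries.

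The seed AUUGCAC of the miR-25/miR-92 family was the only one of 11 seeds with several counted members and at least 1 call that had members called in both directions. miR-25-3p had 241 and 140 counts in the control libraries and 1925 and 1312 in the paused libraries, or 10983 and 8947 CPM in control and 24004 and 20295 CPM in paused ESC, and rose by 1.15 ± 0.33 SE (adjusted p = 0.00272). miR-92a-3p, at 4329.6 and 3771 CPM in control and 7794 and 8137 CPM in paused ESC, rose by 0.97 (adjusted p = 0.023, lost without paused 1 (0.0858)). For both, the paused libraries stood above the control libraries without overlap. miR-32-5p, processed from an intron of Tmem245 (chromosome 4, 56895229 to 56895298), had 13 and 10 counts in the control libraries and 18 and 17 in the paused libraries and fell by 1.33. Its call was lost with any 1 of the 4 libraries left out (adjusted p 0.166 to 0.377) and by DESeq2 (0.162). miR-367-3p fell with its cluster, and miR-363-3p was not called (−0.62, adjusted p = 0.208). The summed seed had 19745 and 18368 CPM in control and 35388 and 30073 CPM in paused ESC, above control in both paused libraries, and missed the threshold (0.78 ± 0.33 SE, adjusted p = 0.0694). It was called by DESeq2 (adjusted p = 0.000775). In edgeR it was called with median-of-ratios scaling (adjusted p = 0.0025), total count alone (0.00706), TMM outside miR-290-295 (0.000112) and no filter (0.00247). ESC libraries alone (0.0135) and thinning to equal depth (0.0481) also gave the call. A filter at 10 CPM (0.07) and the replicate number as a block (0.203) did not.

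**Figure D2:**
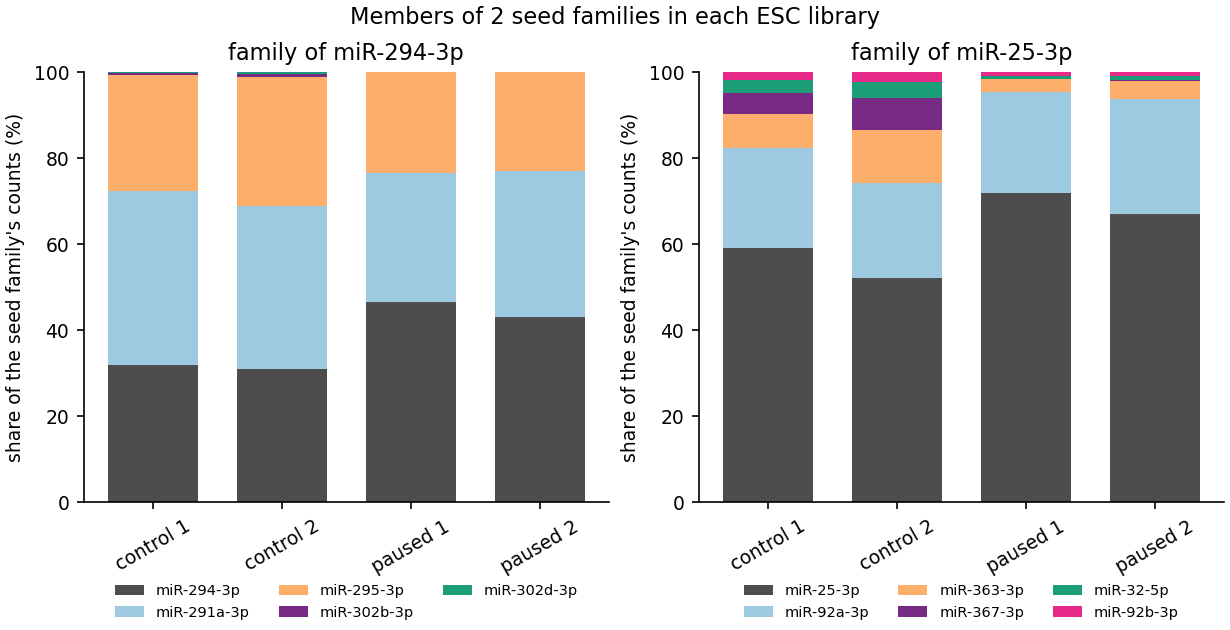
Share of each seed family's counts taken by its members (y axis, percent) in the 4 ESC libraries (x axis), for the family of miR-294-3p on the left and that of miR-25-3p on the right. The bands of miR-302b-3p, miR-302d-3p, miR-367-3p and miR-32-5p are thinner in both paused libraries, and those of miR-294-3p and miR-25-3p are taller.

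Abundant seeds differed in how they fared. AAAGUGC, the seed of miR-17-5p, miR-20a-5p, miR-20b-5p, miR-93-5p, miR-106a-5p and miR-106b-5p, went from 6.34% to 5.58% of counts (−0.14 ± 0.32 SE, 95% interval −0.77 to 0.49) and was called in no alternative. GUGCAAA of miR-19a-3p and miR-19b-3p went from 5.10% to 7.12% (0.53 ± 0.32 SE, adjusted p = 0.262), not called in the main test but called higher with median-of-ratios scaling (0.0245), TMM outside miR-290-295 (0.00108), no filter (0.013) and without control 2 (0.028) or paused 2 (0.0187). GUGCCGC of miR-293-3p fell by 0.87 ± 0.32 SE, from 6.90% to 3.68% of counts (adjusted p = 0.0302). The call was lost with any 1 of the 4 libraries left out, with TMM outside miR-290-295 (0.194) and by DESeq2 (0.0713). It was also lost with no filter (0.795), a filter at 10 CPM (0.493) and the replicate number as a block (0.051). CUCAAAC, shared by the 5p arms of miR-290a, miR-292a and miR-293, took 22.4% and 23.7% (0.12 ± 0.31 SE) and was called in no alternative. The seed CAGUGCA gave 0.18 ± 0.44 SE although 1 of its members, miR-148a-3p, rose, beside miR-148b-3p with the same seed (−0.82, adjusted p = 0.261). AGUGCAA of the miR-130/miR-301 family fell by 1.33 ± 0.34 SE (adjusted p = 0.00063). That call was lost without control 2, with no filter (0.131) and with a filter at 10 CPM (0.11). GGCAGUG of miR-34a-5p fell by 1.97 ± 0.38 SE (adjusted p = 3.6e-06). AAUACUG of miR-200b-3p, miR-200c-3p and miR-429-3p rose by 1.49 ± 0.46 SE (adjusted p = 0.00726, and 0.0155 by DESeq2), and was lost without control 1 (0.112).

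Among the proliferation clusters the shares of counts were 7.94% and 9.72% of counts in control and 10.1% and 10.1% in paused ESC for miR-17-92, and 3.31% and 3.70% of counts in control and 3.74% and 4.05% in paused ESC for miR-106a-363. For miR-106b-25, in the replication helicase gene Mcm7, they were 2.26% and 2.07% of counts in control and 3.84% and 3.44% in paused ESC. The last did not overlap between groups. Called higher were 1 of 8 tested members of miR-17-92 (miR-92a-3p, also encoded in miR-106a-363), 2 of 6 of miR-106a-363 and 1 of 5 of miR-106b-25 (miR-25-3p), with 0 lower in each. The medians were −0.09, 0.45 and −0.19. With the total count alone 1 member of miR-17-92 was called lower, and with TMM outside miR-290-295 2 members of miR-106b-25 were called higher. Within miR-17-92, miR-19a-3p had 37644 and 50743 CPM in control and 66028 and 66207 CPM in paused ESC (0.58, adjusted p = 0.148), while miR-17-5p had 19506 and 23326 CPM in control and 12408 and 14309 CPM in paused ESC (−0.68, adjusted p = 0.0924). Neither passed the test. miR-363-5p, with 11 and 14 counts in the control libraries and 117 and 93 in the paused libraries, rose by 1.10 and lost its call without control 1 (0.212) or paused 1 (0.152) and by DESeq2 (0.23).

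The balance between the 2 arms of a hairpin was tested in 40 hairpins with both arms counted, and 5 differed between paused and control ESC (12.5%). The share of miR-293 counts on its 5p arm was 32.04% and 34.0% in control and 60.0% and 54.2% in paused ESC, on 595 to 3666 counts of the 5p arm and 986 to 2490 of the 3p arm. The 5p arm went from the minor to the major product, and the 2 groups were far apart (difference of log2 fold changes 1.42, adjusted p = 0.0219). In TSC the same share was 35.9% and 31.9% in control and 26.1% and 28.5% in paused cells. For miR-363 the 5p share was 25.6% and 29.8% in control and 59.1% and 52.8% in paused ESC (adjusted p = 0.0219), and for miR-130b 16.4% and 9.68% in control and 32.1% and 40% in paused ESC (adjusted p = 0.0249). The 5p share of miR-324 went the other way, 64.3% and 85.7% in control and 26.9% and 22.6% in paused ESC, on 1 to 24 counts an arm (adjusted p = 0.0219). For miR-708 it was 79.1% and 85.4% in control and 96.3% and 93.2% in paused ESC (adjusted p = 0.0495). miR-130b-5p passed the count minimum only through paused ESC and miR-708-3p only through control ESC. For miR-130b and miR-708 a higher 5p share in paused ESC was therefore favoured. All 5 were called with ESC libraries alone, and miR-293 also after thinning to equal depth (adjusted p = 0.00509). None was called without a filter, with a filter at 10 CPM or with any 1 ESC library left out (adjusted p for miR-293 0.106 to 0.145 in the last).

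**Figure D3:**
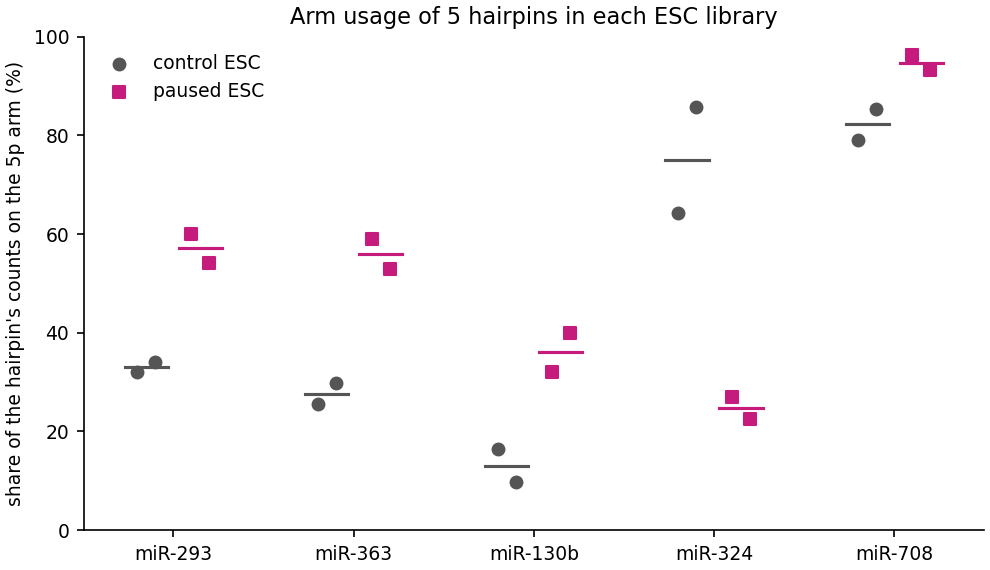
Share of each hairpin's counts on its 5p arm (y axis, percent) for the 5 hairpins called for arm usage. Each point is a library of control ESC (circles) or paused ESC (squares), and the bars are means of 2 libraries. The 5 are shown because they were called, and the groups do not overlap at any of them. miR-130b-5p passed the count minimum only through paused ESC and miR-708-3p only through control ESC. miR-293 moves from a minority to a majority of 5p counts.

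The Sfmbt2-type miRNAs (families miR-669, miR-467, miR-466 and miR-297), most of which are cut from a long intron of the imprinted gene Sfmbt2 and are best known from trophoblast, made up 2.36% and 2.80% of counts in control and 0.190% and 0.177% in paused ESC. Of 20 tested members 18 were called lower and 0 higher, with a median log2 fold change of −3.99. In 9 of the 20, among them both uncalled members, the paused libraries together held 3 or fewer counts. The sizes of those fold changes rest on few counts, as for miR-669f-5p, with 3 and 4 counts in control and 0 and 0 in paused ESC. The 60 untested members summed to 72 control counts and 16 paused counts, and 45 of the 80 had no count in ESC. Of the 18, miR-669l-3p and miR-466m-3p would not have reached the count minimum without control ESC, and the other 16 would have. Decreases differed in size within the group. miR-669f-3p had 83 and 68 counts in the control libraries and 15 and 16 in the paused libraries (−4.22 ± 0.42 SE), and miR-466g had 63 and 64 against 25 and 16 (−3.60 ± 0.42 SE). At the shallow end, miR-467e-5p had 30 and 23 against 27 and 18, or 1367 and 1469.9 CPM in control and 337 and 278 CPM in paused ESC (−2.18 ± 0.44 SE, adjusted p = 7.86e-06), and miR-467c-5p and miR-467d-5p fell by 2.48 and 2.76. The control and paused values of each did not overlap. Of the 18 members with all matched hairpins inside Sfmbt2, 16 were called lower. The members not called were miR-467b-3p, with 1 count in control 1, and miR-669i, with no count in any ESC library. Leaving out control 2 ended the calls of miR-669l-3p (0.0679) and miR-297c-5p, and the latter was also lost without either paused library and by DESeq2 (0.0859). In TSC, where the group is more abundant, its median log2 fold change on pausing was −0.71.

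**Figure D4:**
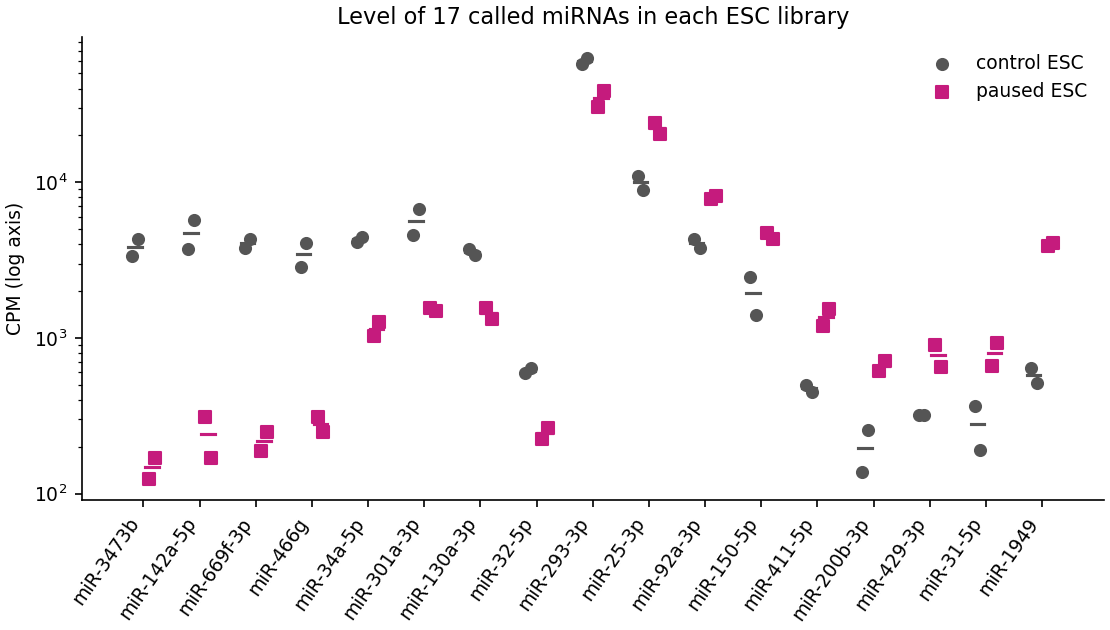
Level of 17 called miRNAs (x axis) in each ESC library (y axis, CPM, log scale), with control libraries as circles, paused libraries as squares and the mean of 2 libraries as a bar. From left to right the first 9 fell and the last 8 rose. The 17 were picked from called miRNAs, so that a lack of overlap was favoured. The 2 groups do not overlap for any of them, nor for 141 of all 206 tested miRNAs. miR-142a-5p passed the count minimum only through control ESC, and miR-200b-3p and miR-31-5p only through paused ESC.

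Among miRNAs tied to growth control, both arms of miR-34a, which is induced by p53 and represses cell-cycle genes, were lower. miR-34a-5p had 90 and 70 counts in the control libraries and 82 and 82 in the paused libraries, so that a similar number of counts came from libraries of very different depth. In CPM these were 4102 and 4474 against 1023 and 1268 (−1.90 ± 0.36 SE, adjusted p = 1.83e-06). miR-34a-3p fell by 1.83, and its call was lost without control 1 (0.122), control 2 (0.11) or paused 2 (0.0572) and by DESeq2 (0.0503). Of 5 tested miR-130/miR-301 members 3 fell and 1 rose, around a median of −1.31, and DESeq2 called 1 lower and 0 higher. The 1 that rose, miR-130b-5p, passed the count minimum only through paused ESC, so its direction was favoured. miR-301a-3p, from an intron of Ska2 (chromosome 11, 87113004 to 87113089), had 4557 and 6774 CPM in control and 1546 and 1485 CPM in paused ESC (−1.89 ± 0.34 SE, adjusted p = 7.53e-07). miR-130a-3p had 3737 and 3387 CPM in control and 1546 and 1330.3 CPM in paused ESC (−1.31 ± 0.35 SE, adjusted p = 0.0013), and its call was lost without control 1 (0.122) or paused 2 (0.0569) and by DESeq2 (0.211). miR-26b-5p, whose family has been tied to growth arrest, had 1 and 0 counts in the control libraries and 31 and 34 in the paused libraries, with its direction bound by the count minimum. The other tested members of the cell-cycle lists gave no call. These were 0 of 11 in the list of miR-15, miR-16, miR-322 and miRNAs grouped with them (median 0.96, 2 members higher with TMM outside miR-290-295). The 11 arms do not share 1 seed, and some, such as miR-322-3p, had 0 counts in both control libraries. Of the tested arms with the seed AGCAGCA, miR-15b-5p had 775 and 447 CPM in control and 1397 and 1052 CPM in paused ESC (0.96, adjusted p = 0.0685). The others with that seed were miR-322-5p (−0.08) and miR-497a-5p (−0.96), neither called.

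The miR-200 family, which holds cells in an epithelial state by repressing Zeb1 and Zeb2, took a larger share of counts in paused ESC. That share of counts was 0.151% and 0.140% of counts in control and 0.343% and 0.330% in paused ESC, without overlap. Of 5 tested members 3 were called higher and 0 lower (median 1.77), and the other 2, miR-200c-3p (1.77, adjusted p = 0.0876) and miR-141-3p (0.67, adjusted p = 0.311), were not called. The median is the value of miR-200c-3p, which, like miR-200b-3p, passed the count minimum only through paused ESC, so its direction was favoured. The 3 called members share 1 locus on chromosome 4 (156053905 to 156055750), and the other 2 lie together on chromosome 6 (124717914 to 124718390). The counts behind these values were small in control cells. miR-429-3p had 7 and 5 counts in the control libraries and 72 and 42 in the paused libraries, miR-200b-3p had 3 and 4 against 49 and 46 (tested only through paused ESC), and miR-200a-3p had 3 and 1 against 36 and 27. DESeq2 called 0 of the 5. The call of miR-429-3p was lost without control 1 (0.105), control 2 (0.0758) or paused 1 (0.286), that of miR-200b-3p without control 1 (0.12), paused 1 (0.0843) or paused 2 (0.0627) and that of miR-200a-3p without control 2 (0.0787) or paused 1 (0.075). In the cluster of miR-183, miR-96 and miR-182, also epithelial and sensory, 0 of 4 members were called (2 higher with median-of-ratios scaling). miR-183-5p came nearest, at 3600.4 and 2684 CPM in control and 5412 and 5847 CPM in paused ESC (0.83 ± 0.35 SE, adjusted p = 0.059). miR-203-3p was not called (0.90, adjusted p = 0.46).

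Imprinted loci other than Sfmbt2 moved little as groups. The maternally expressed Dlk1-Dio3 miRNAs took 4.93% and 5.50% of counts in control and 5.99% and 5.28% in paused ESC, with overlap. Of 33 tested members 2 were called higher and 1 lower, with a median of 0.30 (0 and 0 by DESeq2, 5 up and 0 down when scaled by median of ratios, 7 and 0 by TMM outside miR-290-295, 2 and 2 by total count). miR-411-5p, with 11 and 7 counts in the control libraries and 96 and 99 in the paused libraries, rose by 1.504 ± 0.44 SE (adjusted p = 0.00359, and 0.0834 by DESeq2) and kept its call with each ESC library left out. Its neighbour miR-379-5p had 1048 and 959 CPM in control and 1945 and 2629.7 CPM in paused ESC (1.18, adjusted p = 0.0203), lost without control 1 (0.0529), control 2 (0.0687) or paused 2 (0.0585) and by DESeq2 (0.0823). miR-154-3p, in an intron of Mirg, fell by 0.95 (adjusted p = 0.0374), lost with any 1 of the 4 libraries left out (adjusted p 0.105 to 0.668) and by DESeq2 (0.335). miR-127-3p, which represses the placental gene Rtl1, was not called (0.26).

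miRNAs cut from neighbouring hairpins did not always move together. When tested miRNAs were grouped by hairpins within 10 kb of each other on 1 strand, which could be done for 201 of the 206 with a matched locus, 20 groups with 2 or more hairpins resulted. At least 1 call was made in 12 of them. In 4 the calls were all higher, in 5 all lower, and in 3 in both directions. The last were the Dlk1-Dio3 group above, miR-296/miR-298 and miR-130b/miR-301b. The 1 higher call of miR-130b/miR-301b, miR-130b-5p, passed the count minimum only through paused ESC, so its direction was favoured. miR-296-5p and miR-298-5p come from hairpins on chromosome 2 (174267047 to 174267585, GRCm38) in the imprinted Gnas region. miR-296-5p had 8 and 1 counts in the control libraries and 75 and 66 in the paused libraries and rose by 2.04 ± 0.54 SE (adjusted p = 0.00108, lost without control 2 (0.0629)). miR-298-5p had 957 and 1278 CPM in control and 586 and 356 CPM in paused ESC and fell by 1.21 ± 0.44 SE (adjusted p = 0.0249, lost without control 1 (0.21), control 2 (0.482) or paused 2 (0.367) and by DESeq2 (0.0903)). miR-130b and miR-301b share an intron of 2610318N02Rik on chromosome 16 (17124061 to 17124496). There miR-130b-5p had 456 and 192 CPM in control and 848 and 1052 CPM in paused ESC (1.46, adjusted p = 0.0138, lost without control 2 (0.0977) and by DESeq2 (0.146)), and miR-130b-3p was not called (−0.29). miR-301b-3p had 866 and 1278 CPM in control and 574 and 248 CPM in paused ESC (−1.33, adjusted p = 0.0146, lost without control 1 (0.155), control 2 (0.497) or paused 2 (0.429) and by DESeq2 (0.148)), and its paused libraries stood further apart than its control libraries.

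The best counted decreases outside these families were those of miR-3473b and miR-142a. miR-3473b, whose hairpin lies antisense to an intron of Ccdc162 (chromosome 10, 41670739 to 41670793), had 74 and 68 counts in the control libraries and 10 and 11 in the paused libraries (−4.69 ± 0.46 SE, adjusted p = 1.57e-20). It belongs to a list of entries that may hold fragments of other RNAs, of which 3 of 9 tested members fell and 1 rose (median 0.05). The others that fell were miR-5099, at 1686 and 2109 CPM in control and 412 and 387 CPM in paused ESC (−2.23), and miR-1983, at 3190.2 and 3068 CPM in control and 1109.8 and 1005 CPM in paused ESC (−1.56, lost without control 1 (0.0625)). miR-690 rose by 2.00, with 2 and 4 counts in the control libraries and 33 and 59 in the paused libraries, and lost its call without control 1 (0.124) or paused 2 (0.0857) and by DESeq2 (0.0778). The most abundant entries of that list, miR-5126 (15814 and 12142 CPM in control and 9714 and 16753 CPM in paused ESC) and miR-2137, were not called (−0.08 and 0.05). For both, the paused libraries lay on either side of the control libraries.

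miRNAs best known from blood cells split. miR-142a-5p had 82 and 90 counts in the control libraries and 25 and 11 in the paused libraries (−4.25 ± 0.43 SE), and miR-142a-3p had 36 and 39 against 12 and 8 (−3.86 ± 0.45 SE). Both arms were called lower but passed the count minimum only through control ESC, so that their direction was bound. miR-150-5p had 54 and 22 counts in the control libraries and 380 and 279 in the paused libraries, or 2461 and 1406 CPM in control and 4739 and 4316 CPM in paused ESC, and rose by 1.20 ± 0.38 SE (adjusted p = 0.00813, lost without control 2 (0.0828) or paused 1 (0.0934)). Of 18 blood-linked arms 10 had no count in ESC and 3 could be tested, 1 higher and 2 lower. miR-155-5p had 0 and 1 counts in control and 1 and 0 in paused cells, and miR-144-3p had 0 and 0 against 2 and 0. The part of other cells in these values was not tested.

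miR-1949 had 14 and 8 counts in the control libraries and 314 and 265 in the paused libraries, or 638 and 511 CPM in control and 3916 and 4099 CPM in paused ESC (2.78 ± 0.44 SE, adjusted p = 1.17e-08). It kept its call in every alternative that tested it, as did 20 of the 57. Smaller increases were those of miR-148a-3p and miR-29a-3p, both repressors of DNA methylation enzymes, and of miR-31-5p. miR-148a-3p had 8 and 4 counts in the control libraries and 58 and 54 in the paused libraries (1.28, adjusted p = 0.0374, lost without control 2 (0.11), paused 1 (0.0934) or paused 2 (0.0594) and by DESeq2 (0.211)). miR-29a-3p had 91.1 and 383 CPM in control and 561 and 727 CPM in paused ESC (1.55, adjusted p = 0.0311, lost without control 1 (0.308) or paused 2 (0.06)). miR-31-5p had 365 and 192 CPM in control and 661 and 928 CPM in paused ESC (1.43, adjusted p = 0.0241, lost without control 2 (0.11), paused 1 (0.0537) or paused 2 (0.104) and by DESeq2 (0.204)). Among the weaker decreases, miR-374b-5p, from an intron of the X-inactivation gene Ftx (chromosome X, 103573060 to 103573154), had 365 and 639 CPM in control and 149.6 and 201 CPM in paused ESC (−1.47, lost with any 1 of the 4 libraries left out (adjusted p 0.0857 to 0.542) and by DESeq2 (0.271)). miR-324-5p, in Dvl2 (chromosome 11, 70012043 to 70012131), had 9 and 6 counts in the control libraries and 7 and 7 in the paused libraries (−2.01, lost with any 1 of the 4 libraries left out (adjusted p 0.0555 to 0.21) and by DESeq2 (0.0521)). miR-708-3p had 9 and 7 counts in the control libraries and 4 and 6 in the paused libraries (−2.57, lost with any 1 of the 4 libraries left out (adjusted p 0.199 to 0.38) and by DESeq2 (0.211)). miR-188-5p was called on 2 and 1 counts in control and 0 and 0 in paused ESC, at the floor in both groups, and its call was lost with any 1 of the 4 libraries left out (adjusted p 0.0679 to 0.181).

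Several lists that bear on differentiation, stress and mTOR itself gave no call or 1. No member was called of the let-7/miR-98 family (4 tested, median −0.86), which marks differentiation and whose best counted member in ESC, let-7g-5p, had 4 and 2 counts in control and 18 and 16 in paused cells (0.56, adjusted p = 0.562). let-7i-5p had 3 and 4 against 4 and 1 (−2.35, adjusted p = 0.082). No call was made either in miR-99/miR-100/miR-125/miR-10 (2 tested, median 0.15), the miR-30 family (4, −0.30), the miR-181 family (1, −0.80), the miR-23/27/24 clusters (5, 0.21) and the miRNAs reported to target Mtor (3, 0.12). In the miR-23/27/24 clusters 2 members were called higher with median-of-ratios scaling, and miR-27b-3p came nearest in the main test (1.02 ± 0.42 SE, adjusted p = 0.0548). miR-101a-3p, the best counted miRNA reported to target Mtor, had 1458 and 1469.9 CPM in control and 2095 and 1887 CPM in paused ESC (0.44, 95% interval −0.31 to 1.19). Of the stress, hypoxia and sterol list 1 of 6 was called, miR-31-5p above. miR-21a-5p, a common response to stress and growth signals, had 2005 and 1917 CPM in control and 1434 and 1531 CPM in paused ESC (−0.41, adjusted p = 0.438), and the hypoxia miRNA miR-210-3p had 1 and 1 counts against 6 and 12 (1.20, adjusted p = 0.385). The sterol regulator miR-33-5p was not called (−2.70, adjusted p = 0.0668). For the let-7 family and miR-33-5p a difference was not detectable at this depth.

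The pause effects in ESC and TSC were compared through the difference between the 2 pause effects, which edgeR called for 54 of 206 miRNAs (26.2%). Among the decreases, miR-3473b fell in ESC (−4.69) and had an uncalled value in TSC (0.32, difference −5.01, adjusted p = 2.93e-13). The TSC control libraries of miR-3473b lay far apart, at 446 and 2949 CPM, on either side of paused TSC at 1695 and 1875 CPM. miR-301a-3p (−1.89 in ESC, −0.14 in TSC, adjusted p of the difference 0.00172) and miR-130a-3p (−1.31 and 0.59, 0.000676) also differed. For miR-34a-5p the difference was not called (−1.90 and −0.78, 0.0608), nor for miR-1983 (−1.56 and −2.03, 0.523), which fell in both cell types. Among the increases, miR-1949 had 2.78 in ESC and −3.52 in TSC (adjusted p of the difference 5.27e-12), where paused libraries had 0 and 3 counts. miR-690 (2.00 and −1.47, 4.87e-05) and miR-429-3p (1.28 and −1.38, 0.00107) differed likewise, and miR-25-3p missed the threshold (1.15 and 0.00, 0.0513). miR-294-3p, not called in ESC alone, differed in its pause effect (0.65 and −0.41, 0.0472).

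**Figure D5:**
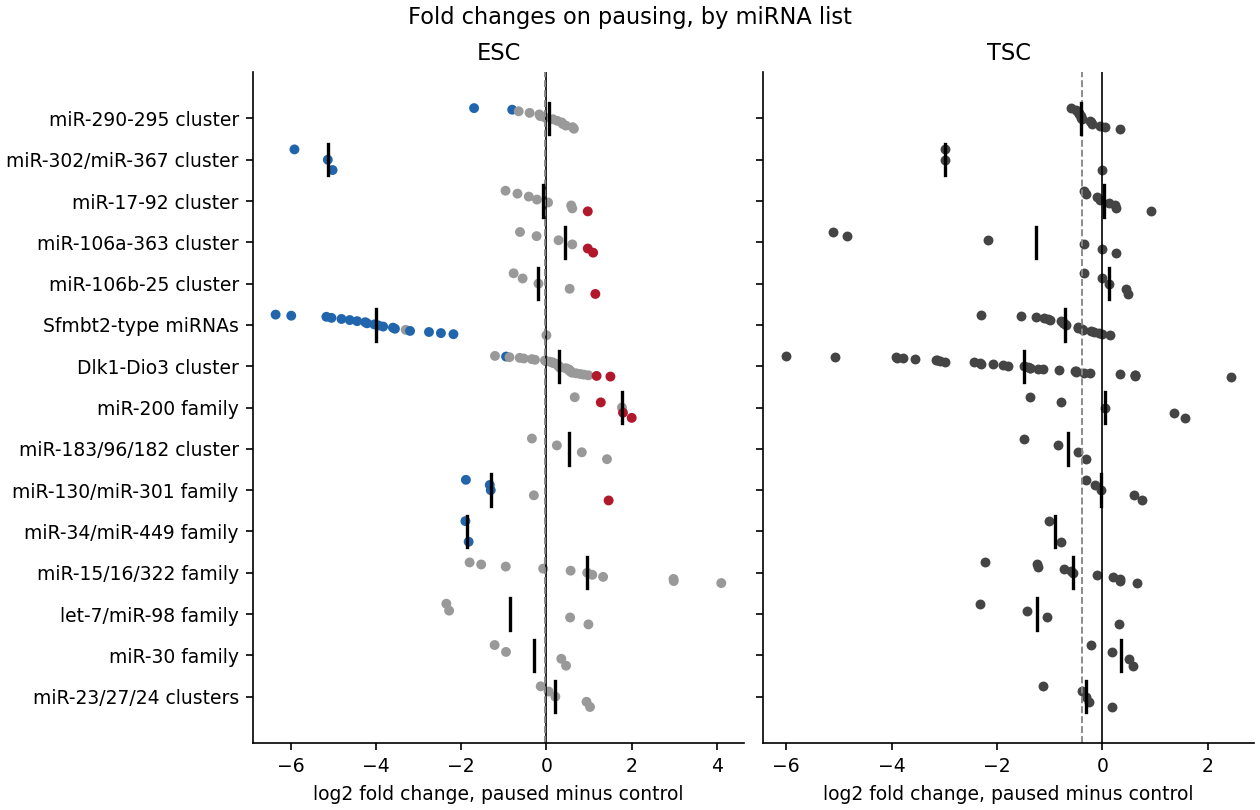
Log2 fold change on pausing (x axis) of the tested members of 15 miRNA lists (rows) in ESC on the left and TSC on the right. Points are miRNAs, in ESC red where called higher, blue where called lower and grey where not called, and in TSC dark without calls. Black bars are list medians and the dashed line is the median of all 206 tested miRNAs. The Sfmbt2-type members lie near −3.99 in ESC and near −0.71 in TSC.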

How the data were processed

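Counts per mature miRNA arm were deposited by the authors as whole numbers for 1978 miRNAs in each sample. The mouse build was GRCm38, per the submitters' processing notes. How reads were aligned and counted, and how multi-locus reads were handled, is not given in the sources used here. The analysis used edgeR 4.0.16 (R 4.3.3). In each group replicates 2 and 3 were identical and were counted as 1 library. filterByExpr (10 counts at the median depth in at least 2 libraries, about 369 CPM before scaling) kept 206 miRNAs, with 98.1% or more of each ESC library's counts. Total counts per ESC library ran from 13607 to 73574. TMM factors were applied, CPM refer to the total count times the factor, and each ± gives the SE of a log2 fold change. The quasi-likelihood fit took in all 4 groups, each with its own mean (common dispersion 0.0456, 4 residual degrees of freedom, infinite prior degrees of freedom), so that p-values rest on a spread pooled over miRNAs. Tests were two-sided, with Benjamini-Hochberg adjustment over all tested features and calls under 0.05. The same fit was run on counts summed by seed, and arm usage was tested with edgeR's diffSpliceDGE. Methods were checked on simulated counts. Hairpin positions and host genes come from RefSeq and GENCODE vM21, both GRCm38. Replicate numbers were not used to pair libraries in the main fit. The correlation of same-numbered deviations was −0.07 in ESC, which does not show that the libraries were unpaired.

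The miRNAs named are those called, the 10 most abundant of each ESC group, up to 4 of the most abundant tested members of each list, and the 10 with the largest uncalled fold change, together with every called hairpin. Other names and the grouping by hairpins within 10 kb were chosen after values were seen. The members and lists were chosen with earlier results of these data known. Alternatives were DESeq2 1.42.0, other scalings and filters, a fit on ESC alone, thinning, a replicate block and each ESC library left out. Of the 40 miRNAs called lower 20 had a sequence in the RefSeq table, so a check of base composition is void and is not given.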

Additional observations from a re-analysis of the deposited data

Results flagged for a closer look

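For 43 named miRNAs the pause effect in ESC differed from that in TSC by an interaction test in edgeR (adjusted p under 0.05). The values below are the ESC effect minus the TSC effect on the log2 scale, below 0 for 23 and above 0 for 20. Of the 43, 32 were themselves called in ESC.

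Among the Sfmbt2-type miRNAs the difference was below 0 for miR-669f-5p (−4.96), miR-297c-5p (−4.96), miR-669c-5p (−4.38), miR-466a-5p (−4.06), miR-466f-3p (−3.82), miR-467e-3p (−3.51), miR-669f-3p (−3.43), miR-669a-3-3p (−3.36), miR-669e-5p (−3.36), miR-669l-5p (−3.24), miR-669b-3p (−3.19), miR-466g (−3.13), miR-466d-3p (−2.45), miR-467e-5p (−1.80) and miR-467c-5p (−1.76). The other differences below 0 were those of miR-3473b (−5.01), miR-188-5p (−4.58), miR-32-5p (−2.02), miR-130a-3p (−1.90), miR-301a-3p (−1.75), miR-335-5p (−1.70), miR-298-5p (−1.49) and miR-21a-5p (−1.37). miR-335-5p and miR-21a-5p were not called in ESC.

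Among miRNAs called in ESC the difference was above 0 for miR-29a-3p (1.87), miR-31-5p (2.13), miR-379-5p (2.31), miR-200b-3p (2.58), miR-429-3p (2.66), miR-690 (3.47), miR-411-5p (3.58), miR-26b-5p (4.40), miR-154-3p (5.06), miR-150-5p (5.38) and miR-1949 (6.30). miR-154-3p fell in ESC by less than it did in TSC. Among miRNAs not called in ESC it was above 0 for miR-294-3p (1.06), miR-2137 (2.21), miR-5126 (2.41), miR-495-3p (2.63), miR-376b-3p (2.79), miR-96-3p (2.92), miR-411-3p (3.24), miR-203-3p (3.30) and miR-20b-5p (5.396). For miR-5126 and miR-2137 this comes with a decrease in TSC (−2.50 and −2.16) beside −0.08 and 0.05 in ESC.

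In 7 of the 43 a TSC group held 3 or fewer counts (miR-495-3p, miR-411-3p, miR-411-5p, miR-154-3p, miR-150-5p, miR-20b-5p and miR-1949), and in 8 an ESC group did, so these differences rest on few counts. In TSC miR-20b-5p had 10 and 0 counts in control libraries against 0 and 0 in paused ones, and miR-150-5p had 5 and 0 against 0 and 0.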

How the results depend on the processing

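Against 57 calls between paused and control ESC (17 higher, 40 lower), DESeq2 called 37 (9 higher), of which 34 were shared, and thinning to the shallowest library left 34 (10 higher, 24 lower). The higher calls numbered 29 with median-of-ratios scaling, 41 with TMM outside the miR-290-295 cluster and 28 with ESC libraries alone. With 1 ESC library left out the calls ran from 41 to 47, the higher from 9 to 17 and the lower from 26 to 33. A library left alone in its group is then assumed to vary like the other groups. The cause of these shifts was not tested. Differences of pause effects, 54 in the main test, numbered 30 by DESeq2, 30 without a filter, 27 after thinning and 33 to 46 with 1 ESC library left out. Seeds, 46 in the main test, numbered 30 by DESeq2 and 27 after thinning. Hairpins with changed arm usage, 5 in the main test, numbered 0 without a filter, 0 with a filter at 10 CPM, 1 after thinning and 0 to 0 with 1 ESC library left out. The 3 counts of miR-297c-5p lay in control 2, and its log2 fold change ran from −6.03 to 0 with 1 library left out. All other called miRNAs kept their direction in every alternative that tested them, and 20 kept their call in each.

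With the replicate number as a replicate block 44 miRNAs were called (9 higher, 35 lower), all among the 57, 31 pause effects differed, 37 seeds were called and 0 hairpins. Deviations of same-numbered libraries from their group means correlated at −0.07 in ESC and −0.18 in TSC. These deviations also hold counting error, so values near 0 do not show that the libraries were unpaired. The shallow control libraries limit what can be seen: 1 count was worth 45.6 CPM in control 1 and 63.9 CPM in control 2.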
